A study of Mus musculus with 18 samples.

Results

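Interferon-stimulated genes are the genes that cells switch on after sensing interferon. A set of 36 of them was followed across the 18 RNA sequencing libraries of a mouse study of mammary cancer. The members were taken by symbol from the deposited count table, which lists 55450 genes. All 36 were found there, and all 36 were among the 19186 genes that passed the filter on low counts. The question put to the set was whether tumors that had lost Brca1 carried a stronger interferon response than tumors that kept it.

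The libraries came from female C57Bl/6 mice, 1 library per mouse. The B1/P/Rbf tumors (n = 5) had the genotype Brca1fl/fl/Trp53fl/fl/TgK18GT121Tg/+, the B1/P tumors (n = 5) Brca1fl/fl/Trp53fl/fl and the P/Rbf tumors (n = 5) Trp53fl/fl/TgK18GT121Tg/+, and the controls were normal mammary glands of wild type mice (n = 3). Tumors were started by an adenovirus that carried Cre recombinase, delivered into the mammary ducts of adult females. Cre deleted the floxed alleles and switched on T121, a fragment of the SV40 large T antigen that is driven by the keratin 18 promoter and binds pRb, p107 and p130 (together Rbf). Trp53 deletion was therefore shared by all 3 tumor groups, and Brca1 was intact only in P/Rbf tumors and in the glands. Each model was limited to cells reached by the virus, and cells that it did not reach keep the undeleted alleles.

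Interferon-stimulated genes are switched on mainly through the ISGF3 complex, which holds STAT2 and IRF9 and binds a DNA element called the interferon-stimulated response element (ISRE). Interferon itself is made after RNA sensors such as MDA5 and RIG-I, or the cGAS-STING pathway for DNA in the cytosol, have been triggered. Cells that cannot repair DNA breaks, such as cells without BRCA1, can leak DNA into the cytosol, which is the background to the question. Both tumor cells and the immune cells among them express these genes.

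Levels are given as CPM, which relate the count of a gene to its library's total after scaling with TMM factors, and values in a group are given in the order of replicates 1 to 5 (1 to 3 for glands). Total expected counts were 27661173 to 37794889 per library, with TMM factors of 0.952 to 1.114 in tumors and 0.7877 to 0.8579 in glands. Brca1 stood at 21.1, 27.8, 45.0, 27.9 and 26.9 CPM in B1/P/Rbf tumors, at 10.9, 21.0, 8.60, 27.9 and 8.13 CPM in B1/P tumors, and at 44.9, 111, 66.5, 116 and 55.9 CPM in P/Rbf tumors. In the glands, where Brca1 is intact, it stood at 5.75, 4.61 and 5.99 CPM, below every tumor of the study. B1/P tumors lay below every P/Rbf tumor, while B1/P/Rbf replicate 3 overlapped P/Rbf replicate 1. RT-qPCR in the study also found only a partial loss of Brca1 in that tumor. By edgeR's quasi-likelihood test with Benjamini-Hochberg adjustment, Brca1 was lower in B1/P than in P/Rbf tumors (log2 fold change -2.37, adjusted p = 0.000845) and higher than in glands in both B1/P (1.49, adjusted p = 0.0147) and B1/P/Rbf (2.45, adjusted p = 0.000535), while the difference of B1/P/Rbf from P/Rbf was -1.41 on the log2 scale (95% interval -2.17 to -0.65) with an adjusted p of 0.0903. Trp53 stood at 6.75 to 24.3 CPM in tumors and 54.4 to 71.8 CPM in glands. The normal glands held high marker levels of skeletal muscle (summed CPM of 21800 to 42800), adipocytes (9180 to 13200) and B cells (320 to 420), and their epithelial markers summed to 1380 to 1770 CPM against 1600 to 8970 CPM in tumors.

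No gene of the set was called higher in either Brca1-deleted group than in P/Rbf tumors, and most genes stood lower there. In the comparison of B1/P/Rbf with P/Rbf tumors, which share Trp53 deletion and T121 and differ in Brca1, 0 of 36 genes passed the test by edgeR's quasi-likelihood test at an adjusted p of 0.05, against 0.281% of all genes tested. DESeq2 and limma-voom also called 0, and 4 genes had an unadjusted p under 0.05 against 16.1% of all genes: Gbp3, Isg15 and Gbp2 on the lower side and Tmem173 on the higher side. The log2 fold changes ran from -1.85 to 1.80 with a median of -0.59, against -0.01 for all genes, and 32 of 36 were below 0 against 50.8% of all genes. That median was -0.36 without B1/P/Rbf replicate 4 and -0.75 without B1/P/Rbf replicate 3, the tumor with a partial loss of Brca1, and the count was 0 without either. With a term for 2 sets of libraries, those numbered 1 to 8 and 9 to 18 in their descriptions, the median was -2.50. That term rests on the 5 B1/P tumors, the group that lies in both sets. The 95% intervals reached from -3.55 to 3.24, and for 18 of 36 genes the upper bound was under 1 on the log2 scale. Standard errors were wide, with a median of 0.709 over the set against 0.41 over all genes. In tissue RNA, fewer cells of a type and less RNA per cell cannot be told apart.

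The mean of both Brca1-deleted groups was also compared with P/Rbf, with equal weight for each group. By edgeR's quasi-likelihood test, 0 of 36 genes passed, against 6.18% of all genes, with 12 at an unadjusted p under 0.05, all on the lower side, against 24.6% of all genes. The median log2 fold change was -0.83 against 0.02 for all genes, with 34 of 36 below 0 against 48.1% of all genes, and the smallest Benjamini-Hochberg adjusted p was 0.0562 for Xaf1. DESeq2 called 4 genes lower and limma-voom 0. With the library-set term the median was -2.55. In the same comparison 2 of 6 epithelial markers were lower (median of the list -0.79 on the log2 scale) and 1 of 5 adipocyte markers was higher by edgeR's quasi-likelihood test, and their part in the result was not tested. The upper bound of the 95% interval was under 1 for 30 genes and under 0 for 12. Leaving out single libraries gave a count of 3 without B1/P replicate 2, 2 without B1/P replicate 3 and 4 without P/Rbf replicate 3.

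B1/P tumors, which lack T121 as well as Brca1, had the lowest tumor median for 35 of 36 genes, the exception being Ifi27l2a. Against P/Rbf tumors, 4 genes were lower and 0 higher by edgeR's quasi-likelihood test with Benjamini-Hochberg adjustment, against 8.43% of all genes called lower and 19.2% called in either direction. These were Cmpk2, Xaf1, Isg15 and Ifi35. DESeq2 called 11 genes lower, and 1 was called when only these groups were fitted. Shares of all genes are given for the main edgeR fit only, so these counts are not read as particular to the set. The median log2 fold change was -1.18 against 0.05 for all genes, and 33 of 36 genes were below 0 against 47.1% of all genes. With the library-set term that median was -2.68. The count of 4 rested on single tumors: it was 12 without B1/P replicate 2 and 9 without P/Rbf replicate 3, and it was 2 without B1/P replicate 1, 2 without B1/P replicate 4 and 2 without B1/P replicate 5. This comparison differs in T121 and in Brca1 at once, so the parts of the 2 alterations cannot be told apart. Cell markers differed in this comparison too, beside 19.2% of all genes called in either direction. By edgeR's quasi-likelihood test 4 of 6 epithelial markers and 1 of 5 NK cell markers were lower in B1/P. Higher were 3 of 8 fibroblast, 4 of 5 skeletal muscle, 1 of 8 macrophage, 1 of 5 dendritic cell and 1 of 5 adipocyte markers. The lists with 1 marker called lie near the share of all genes, and the dendritic cell list had a median log2 fold change of -0.66. Epithelial markers summed to 1600 to 3590 CPM in B1/P, 2450 to 4840 CPM in B1/P/Rbf and 4640 to 8970 CPM in P/Rbf, and their median difference from P/Rbf was -1.28 on the log2 scale in each Brca1-deleted group, with 0 of 6 called for B1/P/Rbf. Fibroblast markers summed to 2550 to 12800 CPM in B1/P and 1260 to 4000 CPM in P/Rbf, and the muscle markers to 1.42 to 581 CPM and 0.92 to 3.88 CPM. The muscle sum of 581 CPM stood in B1/P replicate 5, and the other B1/P tumors lay at 9.14 CPM or lower. The part of these cell types in the result was not tested.

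Between the 2 Brca1-deleted groups, which differ in T121, 1 gene was higher in B1/P/Rbf (Usp18), against 7.36% of all genes called higher and 16.7% called in either direction. The median log2 fold change was 0.64 against -0.06 for all genes, and 32 of 36 genes were above 0 against 46.6% of all genes. Without single B1/P tumors the median was 0.33 (replicate 1), 1.08 (replicate 2), 1.02 (replicate 3) and 0.40 (replicate 4). The count was 4 without B1/P replicate 2 and 2 without B1/P/Rbf replicate 4. It was 0 with the library-set term, 0 when only these groups were fitted and 2 with DESeq2. Cell markers moved here as well: by edgeR's quasi-likelihood test 2 of 6 plasmacytoid dendritic cell, 2 of 6 epithelial, 1 of 5 NK cell, 1 of 5 dendritic cell and 1 of 5 adipocyte markers were higher in B1/P/Rbf, and 3 of 5 skeletal muscle and 1 of 8 fibroblast markers were lower. Markers of plasmacytoid dendritic cells, which are known as strong producers of type I interferon, summed to 132, 285, 130, 92.6 and 171 CPM in B1/P/Rbf, to 92.4, 71.2, 34.5, 87.3 and 62.2 CPM in B1/P, to 68.9 to 99.6 CPM in P/Rbf and to 289 to 403 CPM in glands. The B1/P/Rbf and B1/P sums did not overlap, by a narrow margin. Siglech, 1 of these markers, stood at only 0.152 to 0.993 CPM in B1/P/Rbf and 0.0946 to 0.427 CPM in B1/P. Its values overlapped, and it was not called (adjusted p = 0.228 by edgeR's quasi-likelihood test). Most of each sum thus came from other genes of the list. The part of plasmacytoid dendritic cells and of the other cell types in the result was not tested. The 3 comparisons among tumor groups share their samples and are given side by side, not as independent results. For 0 of 36 genes did any pair of tumor groups stand apart without overlap, against 3.02% of all genes for B1/P/Rbf and P/Rbf, 8.86% for B1/P and P/Rbf, and 10.5% for B1/P/Rbf and B1/P.

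**Figure D1:**
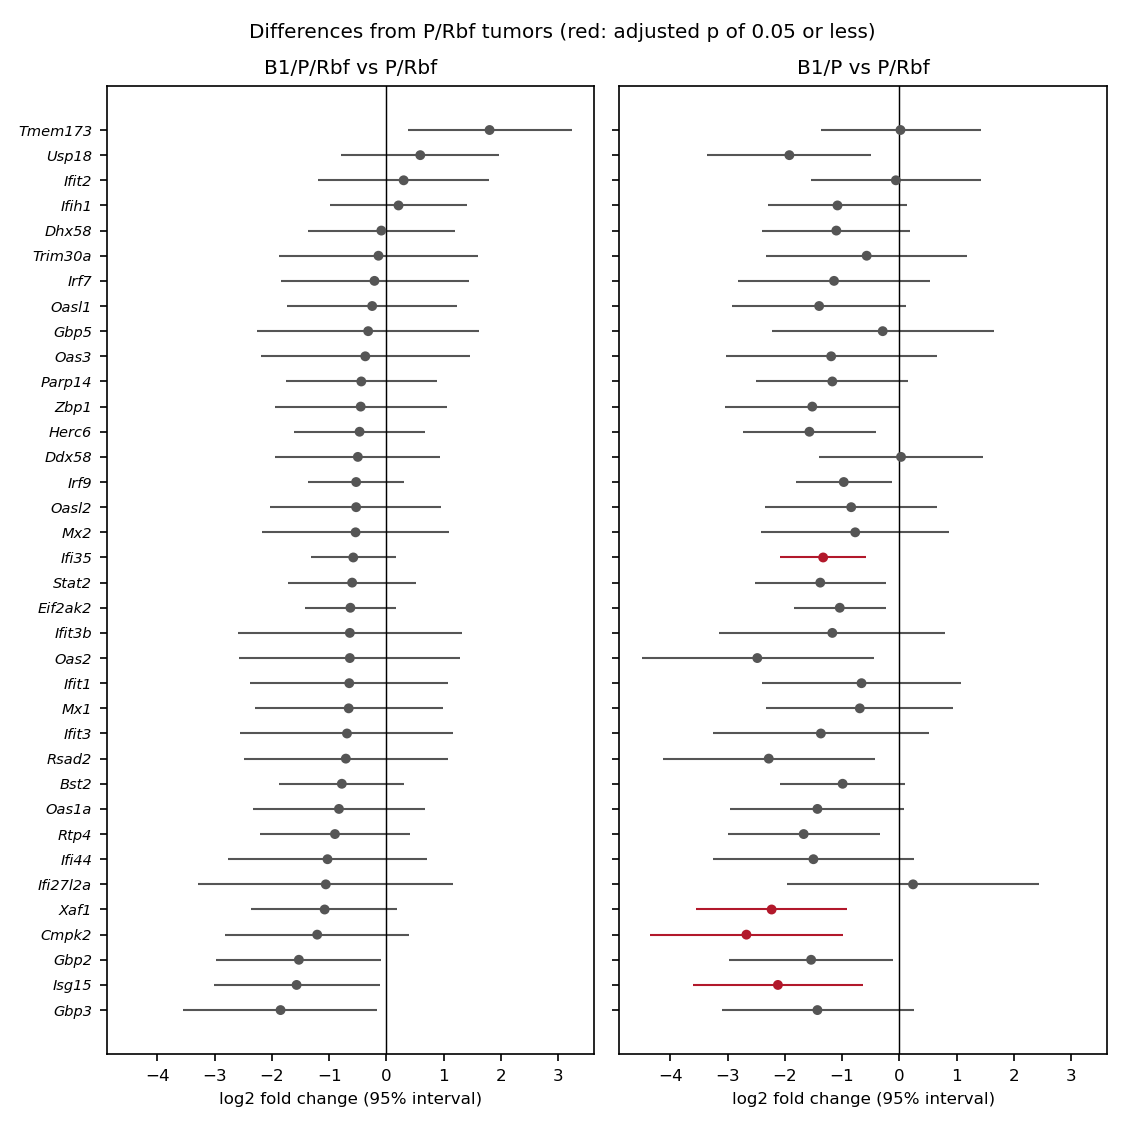
Log2 fold change (x axis) of each interferon-stimulated gene (y axis) in B1/P/Rbf (left) and B1/P (right) against P/Rbf tumors, as points with 95% intervals and with called genes in red. The points lie mostly left of 0, with medians of -0.59 and -1.18 over the 36 genes, and 4 genes are called, all in the B1/P panel.

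The larger differences lay within the groups. The mean log2 CPM over the 36 genes was 6.74, 5.38, 6.73, 4.50 and 6.77 in B1/P/Rbf tumors, 3.08, 6.56, 6.63, 3.67 and 4.63 in B1/P tumors, 7.45, 6.93, 4.13, 6.64 and 6.98 in P/Rbf tumors, and 4.48, 4.41 and 4.43 in glands. Each tumor group held high and low tumors, and the ranges of the 3 groups overlapped over most of their length. The group means were 6.03 ± 1.04 (SD, n = 5), 4.91 ± 1.63 (n = 5) and 6.43 ± 1.32 (n = 5), and the glands stood at 4.44 ± 0.04 (SD, n = 3). From the lowest to the highest tumor of a group the level differed 4.84-fold for B1/P/Rbf, 11.7-fold for B1/P and 10.0-fold for P/Rbf, compared with 1.05-fold among glands.

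**Figure D2:**
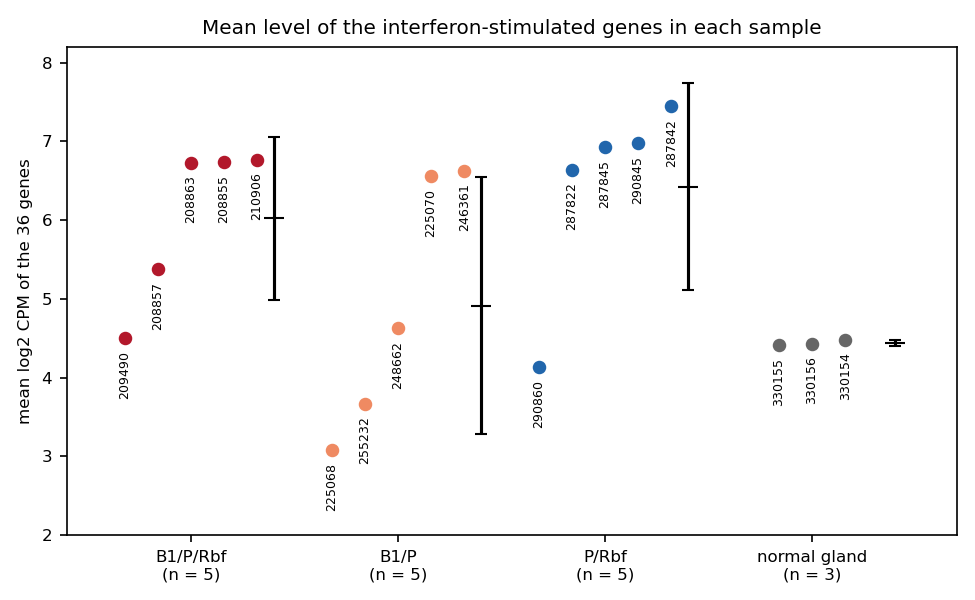
Mean log2 CPM of the 36 genes (y axis) in each sample by group (x axis), with the mean and SD of each group beside its points. B1/P/Rbf tumors span 4.50 to 6.77, B1/P tumors 3.08 to 6.63 and P/Rbf tumors 4.13 to 7.45, while the 3 glands lie between 4.41 and 4.48.

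The same tumors were low for most of the genes. P/Rbf replicate 3 (mouse 290860) was the lowest of its group for 36 of 36 genes, including the helicase gene Ddx58 and the transcription factor genes Irf7 and Irf9. B1/P replicate 1 (mouse 225068) was the lowest for 27 genes, and replicate 4 (mouse 255232) for 8. Among B1/P/Rbf tumors, replicate 4 (mouse 209490) was the lowest for 25 genes and replicate 2 (mouse 208857) for the other 11. Read against the glands, B1/P/Rbf replicate 1 exceeded every gland for 35 genes, while B1/P replicate 1 did so for 2 genes and P/Rbf replicate 3 for 14. The SD of log2 CPM within a group had a median over the set of 1.09 in B1/P/Rbf, 1.74 in B1/P and 1.33 in P/Rbf, against 0.39, 0.49 and 0.43 over the 9302 genes in the same range of levels. Oas2 (SD 2.63) varied most and Eif2ak2 (SD 0.81) least among B1/P tumors. In the glands the median SD was 0.17 against 0.13 for genes in that range.

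**Figure D3:**
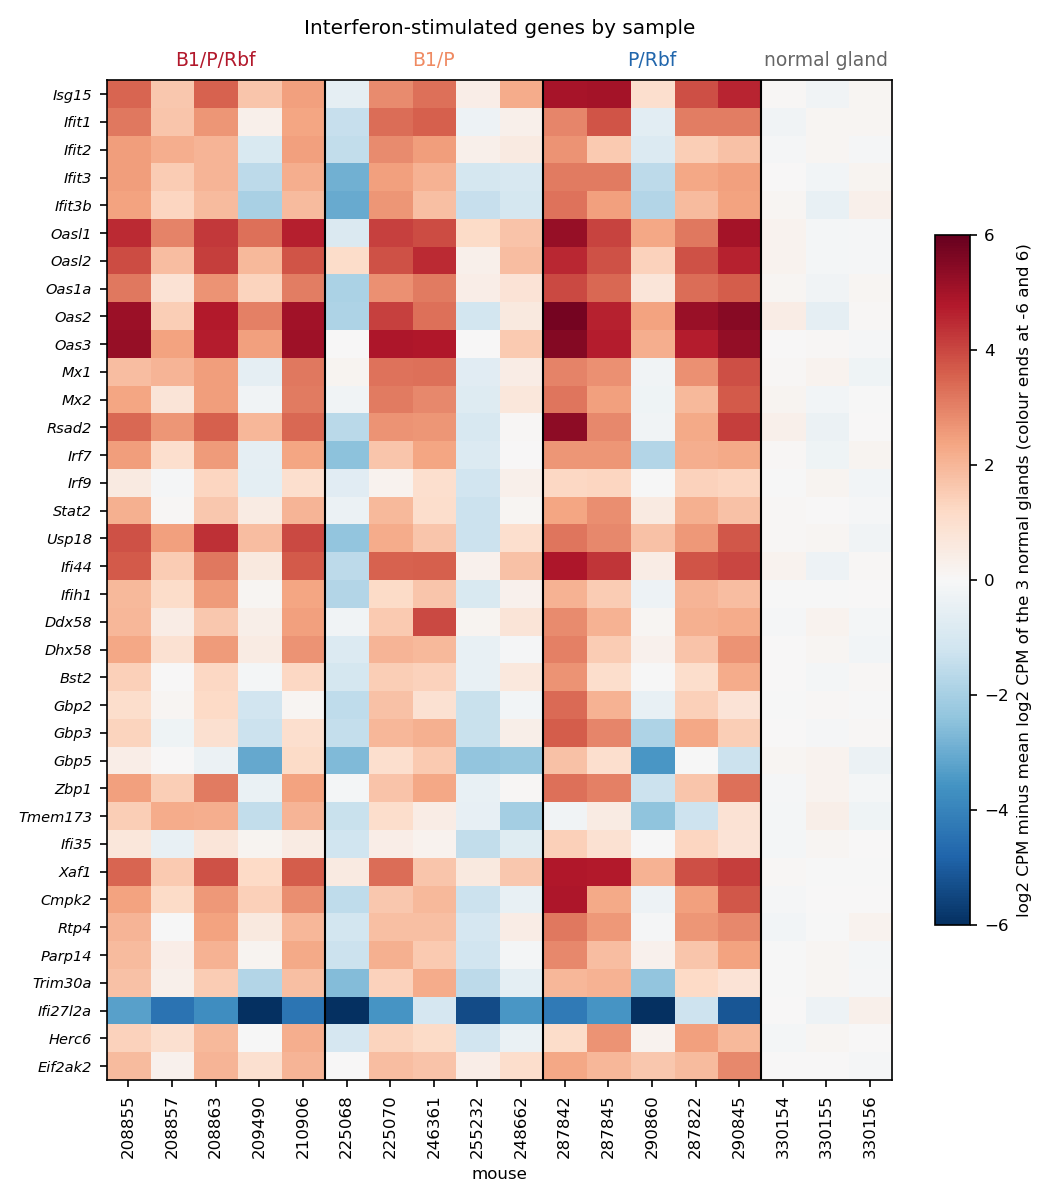
Log2 CPM of each gene (rows) in each mouse (columns), as the difference from the mean of the 3 glands, with red above and blue below the glands and the colour scale ending at -6 and 6. Columns 209490, 225068, 255232 and 290860 are pale or blue over many rows, and the row of Ifi27l2a is blue throughout the tumors.

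Isg15 and the genes that handle its product come first. Isg15 encodes a ubiquitin-like protein that is joined to other proteins, Herc6 the ligase that attaches it in the mouse, and Usp18 the protease that removes it and also restrains signalling from the type I interferon receptor. The stretch before the Isg15 start carries overlapping ISRE cores and is shown because Isg15 is the member most used to read out the response. It covers bases -120 to -1 from the start on the minus strand (GRCm38.p6, chr4:156200819-156200938), just outside the gene, with the cores in capitals and the sequence taken from RefSeq.
Isg15: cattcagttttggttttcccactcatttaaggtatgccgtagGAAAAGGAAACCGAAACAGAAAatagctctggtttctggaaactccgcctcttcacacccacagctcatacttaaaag

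Isg15 stood at 109, 30.4, 114, 30.6 and 53.7 CPM in B1/P/Rbf tumors, at 6.71, 68.9, 97.0, 13.0 and 45.3 CPM in B1/P tumors, at 297, 308, 19.4, 143 and 234 CPM in P/Rbf tumors, and at 10.3, 8.41 and 10.6 CPM in glands. The P/Rbf tumors lay above every Brca1-deleted tumor, except replicate 3, which lay among the lowest. The difference of B1/P from P/Rbf was called lower at -2.12 on the log2 scale (SE 0.70, 95% interval -3.60 to -0.64, adjusted p = 0.0436 by edgeR's quasi-likelihood test with Benjamini-Hochberg adjustment), and it missed the threshold in 14 of 26 other settings, with adjusted p from 0.00922 to 0.112. B1/P/Rbf differed from P/Rbf by -1.57 (95% interval -3.02 to -0.12), with an adjusted p of 0.271 by the same test.

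Usp18 had its highest levels in B1/P/Rbf tumors. It stood at 235, 90.7, 343, 60.5 and 256 CPM in B1/P/Rbf, at 3.15, 77.2, 51.8, 6.71 and 33.2 CPM in B1/P, at 154, 123, 55.2, 101 and 221 CPM in P/Rbf, and at 17.4, 17.9 and 14.4 CPM in glands. All B1/P tumors but replicate 2 lay below every tumor of the other groups. Usp18 exceeded its B1/P level in B1/P/Rbf tumors by 2.52 on the log2 scale (SE 0.69, 95% interval 1.06 to 3.97), with an adjusted p of 0.0198 by edgeR's quasi-likelihood test with Benjamini-Hochberg adjustment. The adjusted p was 0.0580 when only these 2 groups were fitted and 0.0928 with the library-set term. B1/P/Rbf and P/Rbf differed by 0.59 (95% interval -0.79 to 1.97), and the sign turned to -0.55 with the library-set term. Herc6 was at 49.0 ± 25.1 CPM (SD, n = 5) in B1/P/Rbf, 23.0 ± 17.9 CPM in B1/P and 68.1 ± 40.0 CPM in P/Rbf.

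The sensors that start an interferon response made up the next group: Ifih1 (MDA5) and Ddx58 (RIG-I), helicases that recognise double-stranded RNA, their relative Dhx58 (LGP2), Zbp1, a sensor of left-handed nucleic acid, and Tmem173 (STING), the adaptor that relays the cGAS signal. In B1/P/Rbf against P/Rbf, 0 of the 5 were called by edgeR, DESeq2 or limma-voom, against 0.281% of all genes by edgeR, 1 (Tmem173) had an unadjusted p under 0.05, against 16.1% of all genes, and log2 fold changes ran from -0.50 to 1.80. Tmem173 stood at 105, 176, 170, 13.5 and 155 CPM in B1/P/Rbf, at 14.8, 78.1, 52.1, 26.7 and 9.08 CPM in B1/P, at 32.9, 52.5, 7.11, 16.0 and 69.4 CPM in P/Rbf, and at 35.4, 48.2 and 32.0 CPM in glands. All B1/P/Rbf tumors but replicate 4 lay above every other sample of the study, and replicate 4 lay near the bottom of all groups. The difference from P/Rbf was 1.80 on the log2 scale (SE 0.68, 95% interval 0.37 to 3.24), with an adjusted p of 0.198 by edgeR's quasi-likelihood test with Benjamini-Hochberg adjustment. Over the other settings this adjusted p ran from 0.0804 to 0.917 and the log2 fold change from 0.37 to 2.19, the lowest being that with the library-set term.

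Against B1/P, Tmem173 was 1.78 higher in B1/P/Rbf on the log2 scale (95% interval 0.34 to 3.21), with an adjusted p of 0.0825 by edgeR's quasi-likelihood test. It passed with DESeq2 (adjusted p = 0.0323), without B1/P replicate 2 (0.0390) and without B1/P/Rbf replicate 4 (0.0330). B1/P and P/Rbf differed by 0.02 (95% interval -1.37 to 1.42).

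Ifih1 stood at 131, 72.7, 203, 37.2 and 177 CPM in B1/P/Rbf, at 10.0, 75.9, 109, 18.0 and 41.6 CPM in B1/P, at 147, 98.8, 28.0, 140 and 123 CPM in P/Rbf, and at 33.9, 33.8 and 34.9 CPM in glands. The groups overlapped, with B1/P replicates 1 and 4 and P/Rbf replicate 3 below all the glands. B1/P/Rbf was above B1/P by 1.29 on the log2 scale (95% interval 0.07 to 2.51), which did not pass (adjusted p = 0.138, edgeR's quasi-likelihood test with Benjamini-Hochberg adjustment). Ddx58 stood at 190, 64.3, 146, 60.3 and 266 CPM in B1/P/Rbf, at 41.7, 141, 734, 53.2 and 81.1 CPM in B1/P, at 346, 205, 51.4, 207 and 222 CPM in P/Rbf, and at 44.9, 55.8 and 43.4 CPM in glands. A single tumor, B1/P replicate 3, held by far the highest level. The differences from P/Rbf were -0.50 for B1/P/Rbf (95% interval -1.95 to 0.94) and 0.03 for B1/P (95% interval -1.41 to 1.47).

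The signal transducers were Stat2 and Irf9, which encode parts of ISGF3, and Irf7, whose product drives further interferon genes. Stat2 stood at 220, 51.9, 151, 70.5 and 202 CPM in B1/P/Rbf, at 38.7, 189, 103, 20.0 and 54.6 CPM in B1/P, at 257, 338, 71.5, 218 and 169 CPM in P/Rbf, and at 52.4, 49.7 and 46.5 CPM in glands. Irf9 had a lowest value of 39.3, a median of 86.6 and a highest value of 144 CPM in B1/P/Rbf, and stood at 37.4, 69.8, 122, 26.8 and 74.5 CPM in B1/P, at 140, 144, 59.1, 158 and 147 CPM in P/Rbf, and at 58.9, 67.8 and 53.7 CPM in glands. For both genes P/Rbf replicate 3 stood well below the other P/Rbf tumors, and the Brca1-deleted tumors reached from the level of the glands or lower into the P/Rbf range. B1/P/Rbf differed from P/Rbf by -0.60 for Stat2 (95% interval -1.72 to 0.52) and by -0.53 for Irf9 (95% interval -1.37 to 0.30). For B1/P the differences were -1.38 (95% interval -2.52 to -0.24) and -0.97 (95% interval -1.81 to -0.13). Neither was called (adjusted p = 0.0806 and 0.0948 by edgeR's quasi-likelihood test with Benjamini-Hochberg adjustment).

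Irf7 stood at 280, 100, 286, 34.5 and 254 CPM in B1/P/Rbf, at 9.00, 158, 257, 27.9 and 49.3 CPM in B1/P, at 312, 311, 14.7, 225 and 239 CPM in P/Rbf, and at 51.9, 41.6 and 55.8 CPM in glands. Every tumor group held tumors far above and tumors below the glands. B1/P/Rbf differed from P/Rbf by -0.21 (95% interval -1.85 to 1.44), and the sign turned to 0.06 without B1/P/Rbf replicate 4 and to 0.07 with limma-voom.

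**Figure D4:**
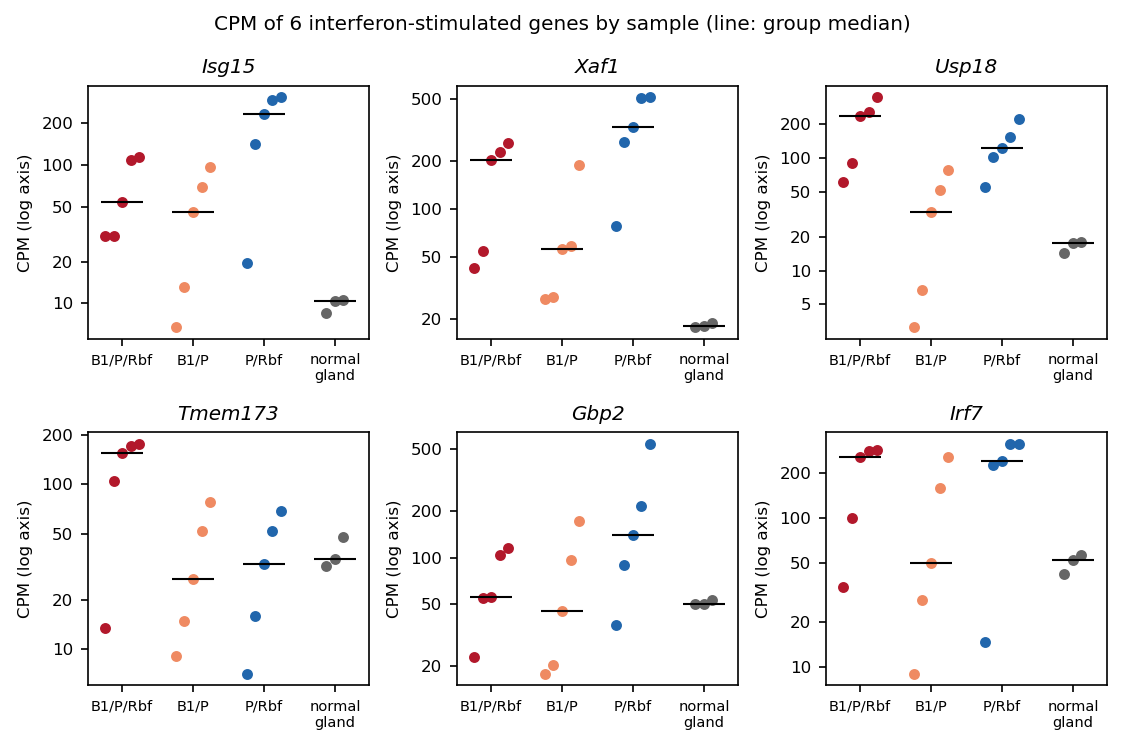
CPM on a log axis (y axis) of 6 genes in each sample by group (x axis), with the line at the group median. P/Rbf tumors lead for Isg15, Xaf1 and Gbp2, B1/P/Rbf tumors lead for Usp18 and Tmem173 with values up to 343 and 176 CPM, and the lowest tumor of each tumor group lies below the glands for Irf7.

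The Ifit genes encode proteins that bind foreign RNA and block its translation. Ifit1, Ifit3 and Ifit3b lie in a cluster on chromosome 19, and their promoter stretches are shown because each carries a pair of ISRE cores and because Ifit3 and Ifit3b were identical over all 90 bases printed. Cores are in capitals, all stretches are on the plus strand of GRCm38.p6 from RefSeq, and they cover bases -120 to -21 of Ifit1 (chr19:34640769-34640868), -180 to -91 of Ifit3 (chr19:34583349-34583438) and -212 to -123 of Ifit3b (chr19:34607745-34607834).
Ifit1: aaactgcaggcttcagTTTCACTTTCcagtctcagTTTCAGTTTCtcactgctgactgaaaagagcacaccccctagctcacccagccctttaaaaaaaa
Ifit3: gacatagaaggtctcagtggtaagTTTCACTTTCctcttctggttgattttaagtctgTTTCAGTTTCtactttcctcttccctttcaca
Ifit3b: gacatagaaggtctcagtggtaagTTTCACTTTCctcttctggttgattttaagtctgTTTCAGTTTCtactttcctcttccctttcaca

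Ifit1 stood at 109, 38.0, 75.3, 15.1 and 62.9 CPM in B1/P/Rbf, at 4.64, 123, 145, 9.76 and 15.0 CPM in B1/P, at 92.6, 164, 7.90, 104 and 103 CPM in P/Rbf, and at 10.6, 12.9 and 13.0 CPM in glands. B1/P tumors split into replicates 2 and 3, among the highest tumors, replicates 4 and 5, near the glands, and replicate 1, well below them. The difference of B1/P/Rbf from P/Rbf was -0.65 (95% interval -2.39 to 1.08) and that of B1/P -0.66 (95% interval -2.40 to 1.07). In the family as a whole, 0 of 4 members were called in any comparison of tumor groups by edgeR, DESeq2 or limma-voom, and 0 had an unadjusted p under 0.05. Over all genes the shares called by edgeR were 0.281% (B1/P/Rbf against P/Rbf), 19.2% (B1/P against P/Rbf) and 16.7% (B1/P/Rbf against B1/P), and those at an unadjusted p under 0.05 were 16.1%, 34.5% and 31.3%. Ifit2 was at 55.5 ± 28.5 CPM (SD, n = 5) in B1/P/Rbf, 43.2 ± 41.2 CPM in B1/P and 45.0 ± 29.6 CPM in P/Rbf, with medians of 61.3, 19.7 and 41.0 CPM. Ifit3 and Ifit3b share 31.7% and 27.4% of their exonic windows of 100 bases with each other, so that the division of reads between them is uncertain. Ifit3b held the lowest value of any member, 1.02 CPM in B1/P replicate 1.

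The Oas genes encode enzymes that make oligoadenylates that activate RNase L after binding double-stranded RNA, the Oasl genes encode their relatives, and Eif2ak2 encodes PKR, which halts translation. All 6 genes had log2 fold changes below 0 in B1/P/Rbf and in B1/P against P/Rbf, with medians of -0.58 and -1.30. By edgeR's quasi-likelihood test 0 of 6 passed in either, against 0.281% and 19.2% of all genes. At an unadjusted p under 0.05 there were 0 and 2, against 16.1% and 34.5% of all genes, while in B1/P DESeq2 called 2 and limma-voom 1. The stretch before Oas3 holds an ISRE core and is shown because Oas3 was called higher than in normal gland in all 3 tumor groups. Oasl1 and Oasl2 were called higher in all 3 as well, and their promoters lack the core in these letters. It covers bases -120 to -21 on the minus strand (GRCm38.p6, chr5:120777680-120777779), outside the gene, with the ISRE core in capitals.
Oas3: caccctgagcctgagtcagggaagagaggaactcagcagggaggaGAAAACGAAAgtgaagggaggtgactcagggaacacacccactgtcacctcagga

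Oas2 stood at 398, 31.6, 310, 92.9 and 377 CPM in B1/P/Rbf, at 3.15, 199, 115, 5.38 and 17.3 CPM in B1/P, at 618, 283, 61.5, 423 and 504 CPM in P/Rbf, and at 15.4, 8.02 and 12.3 CPM in glands. The lowest and highest B1/P tumors were 63.2-fold apart, the widest such ratio for Oas2 in any group. B1/P/Rbf differed from P/Rbf by -0.64 (95% interval -2.57 to 1.28), and B1/P by -2.48 (95% interval -4.50 to -0.45, adjusted p = 0.0782 by edgeR's quasi-likelihood test with Benjamini-Hochberg adjustment). Oas3 followed the same tumors, at 209, 29.6, 147, 31.1 and 191 CPM in B1/P/Rbf, at 5.59, 161, 157, 5.62 and 16.6 CPM in B1/P, at 250, 145, 24.9, 146 and 220 CPM in P/Rbf, and at 5.59, 5.76 and 5.25 CPM in glands. B1/P replicates 1 and 4 were at the level of the glands. Oas1a shares 40.9% of its exonic windows of 100 bases with Oas1g, so that its counts are uncertain.

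The products of Rsad2 (viperin) and its neighbour Cmpk2 on chromosome 12, Mx1, Mx2 and Bst2 (tetherin) are known to act on viruses directly. They do so by depleting or altering nucleotides, by trapping nucleocapsids and by holding budding particles. Mx2 is annotated as a polymorphic pseudogene, and whether the Mx1 and Mx2 alleles of these mice give working proteins was not examined. The Rsad2 stretch is shown as one with a single core. It covers bases -160 to -61 on the minus strand (GRCm38.p6, chr12:26456513-26456612), with the ISRE core in capitals, from RefSeq.
Rsad2: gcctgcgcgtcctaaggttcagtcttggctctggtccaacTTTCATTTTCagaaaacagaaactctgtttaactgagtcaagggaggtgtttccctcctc

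Rsad2 stood at 153, 87.5, 170, 56.4 and 153 CPM in B1/P/Rbf, at 4.58, 92.8, 88.9, 7.22 and 14.8 CPM in B1/P, at 576, 103, 12.1, 69.0 and 253 CPM in P/Rbf, and at 17.6, 10.9 and 14.6 CPM in glands. P/Rbf tumors reached both above and below the whole B1/P/Rbf range. The difference of B1/P/Rbf from P/Rbf was -0.71 (95% interval -2.49 to 1.07), and it turned to 0.17 without P/Rbf replicate 1 and to 0.20 with limma-voom. Cmpk2 stood at 72.2, 29.7, 82.4, 37.2 and 93.7 CPM in B1/P/Rbf, at 4.64, 41.3, 53.3, 5.59 and 9.93 CPM in B1/P, at 399, 65.8, 10.9, 75.8 and 179 CPM in P/Rbf, and at 13.1, 13.7 and 14.0 CPM in glands. All B1/P tumors lay below 4 of 5 P/Rbf tumors. Cmpk2 was lower in B1/P than in P/Rbf by a log2 fold change of -2.67 (SE 0.80, 95% interval -4.35 to -0.99, adjusted p = 0.0278, edgeR's quasi-likelihood test with Benjamini-Hochberg adjustment). The adjusted p was 0.0807 without P/Rbf replicate 1, 0.0556, 0.0573 and 0.0599 without B1/P replicates 1, 4 and 5, 0.0593 with limma-voom and 0.0972 with only these groups fitted. For Mx1, Mx2 and Bst2, B1/P/Rbf differed from P/Rbf by -0.66, -0.54 and -0.78, and the 95% intervals of all 3 included 0.

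The guanylate-binding proteins are large GTPases that respond to interferon gamma more than most members. Gbp3 stood at 94.2, 30.6, 72.6, 15.4 and 75.3 CPM in B1/P/Rbf, at 14.0, 147, 165, 14.6 and 47.5 CPM in B1/P, at 461, 282, 10.3, 185 and 104 CPM in P/Rbf, and at 37.6, 35.0 and 39.1 CPM in glands. Gbp2 stood at 104, 55.8, 115, 23.0 and 55.1 CPM in B1/P/Rbf, at 17.9, 172, 96.5, 20.4 and 45.0 CPM in B1/P, at 541, 215, 36.9, 139 and 89.9 CPM in P/Rbf, and at 49.9, 53.5 and 50.2 CPM in glands. P/Rbf replicates 1 and 2 lay above every Brca1-deleted tumor for both genes, and replicate 4 for Gbp3, while P/Rbf replicate 3 lay below all of them for Gbp3. Gbp3 showed the lowest log2 fold change of the set in B1/P/Rbf against P/Rbf, at -1.85 (95% interval -3.55 to -0.16, adjusted p = 0.265 by edgeR's quasi-likelihood test with Benjamini-Hochberg adjustment). For Gbp2 it was -1.53 (95% interval -2.97 to -0.10, adjusted p = 0.277 by the same test). Gbp5 differed in that its highest group median was that of the glands, where it stood at 18.0 ± 3.38 CPM (SD, n = 3).

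The other members include Xaf1, which encodes an antagonist of the XIAP inhibitor of apoptosis, Ifi35, a partner of Nmi, and Ifi27l2a, a small membrane protein. The Xaf1 stretch is shown as one that lacks the core in these letters. It covers bases -120 to -1 on the plus strand (GRCm38.p6, chr11:72301509-72301628), from RefSeq.
Xaf1: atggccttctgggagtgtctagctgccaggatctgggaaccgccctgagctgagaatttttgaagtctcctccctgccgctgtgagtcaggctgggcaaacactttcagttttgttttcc

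Xaf1 stood at 205, 54.0, 262, 42.6 and 231 CPM in B1/P/Rbf, at 27.0, 190, 58.5, 27.6 and 56.0 CPM in B1/P, at 508, 501, 78.6, 264 and 331 CPM in P/Rbf, and at 19.0, 17.9 and 18.1 CPM in glands. Apart from replicate 3, the P/Rbf tumors lay above all Brca1-deleted tumors. Xaf1 was lower in B1/P than in P/Rbf, with a log2 fold change of -2.23 (SE 0.63, 95% interval -3.55 to -0.91, adjusted p = 0.0203, edgeR's quasi-likelihood test with Benjamini-Hochberg adjustment). For B1/P/Rbf it was -1.08 (95% interval -2.36 to 0.19). Ifi35 stood at 73.6, 33.1, 74.6, 50.9 and 64.9 CPM in B1/P/Rbf, at 19.7, 60.2, 52.3, 16.5 and 27.1 CPM in B1/P, at 122, 85.1, 44.9, 109 and 81.5 CPM in P/Rbf, and at 41.7, 49.0 and 45.9 CPM in glands. P/Rbf tumors lay above every Brca1-deleted tumor, again except replicate 3. The log2 fold change of B1/P from P/Rbf was -1.33 (SE 0.36, 95% interval -2.08 to -0.58, adjusted p = 0.0158, edgeR's quasi-likelihood test with Benjamini-Hochberg adjustment), and between B1/P/Rbf and B1/P it was 0.76 (95% interval 0.02 to 1.50, adjusted p = 0.151 by the same test). With only the groups compared in the fit, the adjusted p of Ifi35 for B1/P and P/Rbf was 0.0606, and with the library-set term that of Xaf1 was 0.0501.

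Against normal gland, most genes had a log2 fold change above 0 in each tumor group, and the number that passed depended on the test and the fit. In B1/P, however, the group median lay below that of the glands for 13 genes. B1/P replicates 1 and 4 lay below every gland for 31 and 26 genes. By edgeR's quasi-likelihood test with Benjamini-Hochberg adjustment, P/Rbf tumors had 22 genes higher and 0 lower, against 37.7% of all genes called in either direction and 17.4% called higher. B1/P/Rbf tumors had 13 genes higher and 1 lower, against 37.0% in either direction and 17.1% higher, and B1/P tumors had 3 higher and 0 lower, against 33.8% and 16.8%. Median log2 fold changes were 2.37, 1.90 and 1.07, against 0.05, 0.05 and 0.12 for all genes, in that order. DESeq2 called 13 genes for B1/P, 12 of them higher, while library sizes without TMM gave 8 and limma-voom gave 1, which was lower. For B1/P/Rbf DESeq2 called 22 genes, and 26 were called when only the groups compared were fitted. For P/Rbf, 14 were called under the filter of log2 CPM of 6 in 6 samples, 13 higher and 1 lower. That filter kept only 30 genes of the set, so its count is not over the same genes as the main fit. With the library-set term 0 genes were called for B1/P/Rbf and 0 for B1/P by edgeR's quasi-likelihood test. Their medians were then 0.13 and -0.19, the second with its sign turned, against -0.05 and 0.03 for all genes. The share of all genes called with that term is not given, so the fall to 0 is not read as particular to the set. These comparisons share the 3 glands, which differ from tumors in cell makeup.

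The glands weighed heavily in these counts. Without single glands the count was 10, 11 and 9 for P/Rbf and 8, 7 and 6 for B1/P/Rbf (both directions together), and for B1/P it was 0 without each of them. The B1/P/Rbf count of 14 fell to 9 without replicate 1, 9 without replicate 3 and 9 without replicate 5. The B1/P count of 3 was 9 without B1/P replicate 1, 7 without B1/P replicate 4, 5 without B1/P/Rbf replicate 2 and 6 without P/Rbf replicate 3. The median for B1/P was 0.65 without B1/P replicate 2 and 0.70 without B1/P replicate 3.

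Oas2 and Oas3 had the largest rises of the set over normal gland in P/Rbf and in B1/P/Rbf tumors. All 6 genes of the Oas family with Eif2ak2 were higher in P/Rbf and in B1/P/Rbf than in glands, and 3 were higher in B1/P (Oasl2, Oasl1 and Oas3), against 17.4%, 17.1% and 16.8% of all genes. Oas3 rose by 4.83 in P/Rbf, 4.46 in B1/P/Rbf and 3.64 in B1/P on the log2 scale (adjusted p = 0.00667, 0.0101 and 0.0259, edgeR's quasi-likelihood test with Benjamini-Hochberg adjustment). Oas2 rose by 4.99 in P/Rbf and 4.35 in B1/P/Rbf (adjusted p = 0.00811 and 0.0151 by the same test). Xaf1 had the smallest adjusted p of the set in P/Rbf, with a log2 fold change of 4.20 (adjusted p = 0.000993, edgeR's quasi-likelihood test), and all its tumor values lay above all its gland values. Isg15 rose by 4.36 in P/Rbf and 2.79 in B1/P/Rbf (adjusted p = 0.00204 and 0.0206 by the same test). With the library-set term none of the rises of Oas2, Isg15 and Oas3 in B1/P/Rbf passed (adjusted p = 0.637, 0.331 and 0.588 by edgeR's quasi-likelihood test), with Oas2 at 1.13 and Isg15 at 1.81, nor did that of Oas3 in B1/P, at 1.01 (adjusted p = 0.516). Without any single gland the call of Isg15 in B1/P/Rbf and that of Oas3 in B1/P were lost, and so was that of Oas2 in B1/P/Rbf without gland replicate 2 or 3, while the P/Rbf calls of Oas2, Oas3, Xaf1 and Isg15 held in all these settings.

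Ifi27l2a ran the other way. It stood at 63.6, 28.7, 46.1, 5.88 and 29.1 CPM in B1/P/Rbf, at 2.73, 52.4, 303, 14.6 and 53.3 CPM in B1/P, at 32.3, 51.7, 1.77, 259 and 17.1 CPM in P/Rbf, and at 618, 488 and 747 CPM in glands. Every tumor lay below every gland. The log2 fold change in B1/P/Rbf was -4.16 (SE 1.25, 95% interval -6.78 to -1.53, adjusted p = 0.0148, edgeR's quasi-likelihood test with Benjamini-Hochberg adjustment; 0.0636 with the library-set term), and those of -2.86 in B1/P and -3.09 in P/Rbf had adjusted p of 0.0753 and 0.0522. Counting genes whose groups did not overlap, B1/P/Rbf had 17 on the higher and 1 on the lower side, against 50.5% of all genes in either direction, P/Rbf had 14 and 1, against 46.5%, and B1/P had 2 and 1, against 41.4%. On a scale per length of exon, the medians of Bst2 were 179 (B1/P/Rbf), 117 (B1/P), 157 (P/Rbf) and 77.3 (glands) CPM per kb, while Ifi27l2a had 1340 CPM per kb in glands and 62.8, 113 and 69.8 CPM per kb in tumors.

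Markers of immune cells moved with the level of the set in part. The summed CPM of 6 leukocyte markers was 304, 208, 138 and 263 in B1/P/Rbf replicates 1, 2, 3 and 5 and lower in replicate 4, and it was 112, 641, 455, 166 and 160 in B1/P, 105, 215, 115, 247 and 89.3 in P/Rbf, and 815 to 1140 in glands. In B1/P the tumors with the highest set level, replicates 2 and 3, had the highest leukocyte sums, while in P/Rbf the tumor with the highest set level, replicate 1, had one of the lowest. The glands, with the highest leukocyte sums, had a low set level. Ptprc (CD45) stood at 52.4, 51.0, 27.7, 15.4 and 62.5 CPM in B1/P/Rbf, at 19.5, 113, 109, 23.1 and 23.4 CPM in B1/P, at 18.1, 36.3, 14.7, 45.4 and 13.4 CPM in P/Rbf, and at 243, 322 and 212 CPM in glands. In B1/P against P/Rbf, 4 of the 6 leukocyte markers had an unadjusted p under 0.05 by edgeR's quasi-likelihood test, against 34.5% of all genes, and 0 were called between any tumor groups by edgeR, DESeq2 or limma-voom.

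NK cell markers summed to 26.9, 30.3, 64.1, 2.00 and 19.7 CPM in B1/P/Rbf, to 0.763, 3.64, 8.39, 1.63 and 3.18 CPM in B1/P, to 32.2, 6.56, 1.57, 15.3 and 22.5 CPM in P/Rbf, and to 12.3 to 17.2 CPM in glands. The lowest NK cell sum of each tumor group stood in the tumor with the lowest set level, and so did the lowest T cell sum (3.32, 9.38 and 4.33 CPM). Macrophage markers summed to 205 to 723 CPM in B1/P/Rbf, 342 to 1460 CPM in B1/P, 246 to 566 CPM in P/Rbf and 219 to 323 CPM in glands. The part of these cells in the level of the set was not tested.

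**Figure D5:**
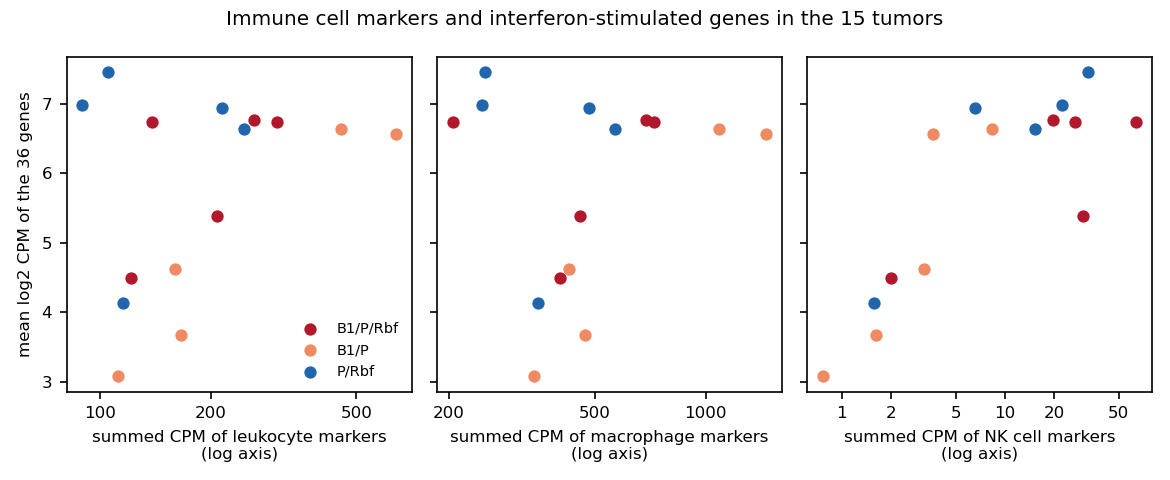
Mean log2 CPM of the 36 genes (y axis) against the summed CPM, on log axes, of leukocyte, macrophage and NK cell markers (x axes) in the 15 tumors. The tumors at 4.50 or lower sit at NK cell sums of 2.00 or lower, while leukocyte sums of 89.3 to 641 are found among tumors with a high level.

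The libraries carry numbers from 1 to 18 in their descriptions, and a split after number 8 was one of the alternatives tried, although the labels do not call it a batch. All B1/P/Rbf tumors have numbers 1 to 8, and all P/Rbf tumors and glands have numbers 9 to 18, so that this split and the Brca1 comparison with T121 cannot be told apart. Only B1/P tumors lie on both sides. Within numbers 1 to 8 the mean level of the set was 6.03 in B1/P/Rbf (n = 5) and 5.43 in B1/P (n = 3). Within numbers 9 to 18 it was 6.43 in P/Rbf (n = 5) and 4.15 in B1/P (n = 2).

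Other genes of the pathway were taken from 3 lists. Of 28 listed genes for interferons, their receptors and signalling, 19 could be tested. In B1/P/Rbf against P/Rbf, where edgeR called 0.281% of all genes and 16.1% had an unadjusted p under 0.05, 0 of the list were called by edgeR, DESeq2 or limma-voom, with 1 at an unadjusted p under 0.05, and 1 was lower in B1/P than in P/Rbf, against 8.43% of all genes: Irf1, which encodes a transcription factor induced by interferon gamma, at -1.75 on the log2 scale (adjusted p = 0.00387, edgeR's quasi-likelihood test with Benjamini-Hochberg adjustment). Between B1/P/Rbf and B1/P the interferon lambda receptor gene Ifnlr1 was lower in B1/P/Rbf, at -1.13 (adjusted p = 0.0243 by the same test). The median log2 fold changes of this list in B1/P/Rbf and in B1/P against P/Rbf were -0.09 and -0.12. The interferon beta gene Ifnb1 stood at 0.142, 0.513, 0.469, 0.0507 and 0.357 CPM in B1/P/Rbf, at 0, 0.0889, 0.0503, 0 and 0.0946 CPM in B1/P, at 0.144, 0.158, 0, 0 and 0.204 CPM in P/Rbf, and at 0 in the glands, so that no library held more than 19 counts. It was called higher in B1/P/Rbf than in glands (adjusted p = 0.0144, edgeR's quasi-likelihood test with Benjamini-Hochberg adjustment). Against P/Rbf and against B1/P it was not called in B1/P/Rbf, with log2 fold changes of 1.60 (95% interval -0.48 to 3.67) and 2.61 (95% interval 0.41 to 4.82). Ifng was too low to be tested.

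Of 23 further genes of nucleic acid sensing, 0 were called in B1/P/Rbf against P/Rbf by edgeR, DESeq2 or limma-voom (0.281% of all genes by edgeR), with 3 at an unadjusted p under 0.05 against 16.1% of all genes. In B1/P against P/Rbf, 3 were lower, against 8.43% of all genes: Cgas, the DNA sensor that works through STING, at -1.68 (adjusted p = 0.00110), Rnaseh2b, a subunit of RNase H2, at -1.26 (adjusted p = 0.00207), and Zc3hav1, the antiviral protein ZAP, at -0.69 (adjusted p = 0.0278), all by edgeR's quasi-likelihood test with Benjamini-Hochberg adjustment. Enpp1, which encodes the enzyme that breaks down the cGAS product, was 3.38 higher (adjusted p = 0.00187 by the same test). Between B1/P/Rbf and B1/P, Cgas was higher and Enpp1 lower (log2 fold changes of 1.87 and -4.00, adjusted p = 0.000613 and 0.000824 by the same test), and Zc3hav1, Aim2 and Dhx9 were also higher, against 7.36% of all genes called higher. Among 53 other interferon-induced genes tested, 0 were called in B1/P/Rbf against P/Rbf by the same tools, with 0 at an unadjusted p under 0.05 against the same shares of all genes, 6 were lower in B1/P than in P/Rbf (Lgals9, Mlkl, Nampt, Nmi, Slfn8 and Isg20) against 8.43% of all genes, and Lgals9 exceeded its B1/P level in B1/P/Rbf. Their median log2 fold changes were -0.30, -0.89 and 0.65 in these comparisons. For the mean of both Brca1-deleted groups against P/Rbf, 1 gene of each of the 3 lists was called, against 6.18% of all genes: Irf1 (-1.42, adjusted p = 0.0148), Rnaseh2b (-0.92, adjusted p = 0.0150) and Isg20 (-1.30, adjusted p = 0.0410), all lower by edgeR's quasi-likelihood test.

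RefSeq promoters, from 250 bases before to 50 bases after a start, were at hand for 26 of the 36 genes as 30 promoters (GRCm38.p6). The ISRE core, read as GAAANNGAAA on both strands, was found in 17 of these 30 promoters (56.7%) and in 3.44% of all 32851 promoters, and the core of the gamma-activated site, read as TTCNNNGAA on both strands, in 6 (20.0%) and in 8.3%. By gene, 16 had an ISRE core, 6 had the other core and 4 had both, and 7 had more than 1 ISRE core. Isg15 had 3, overlapping in the stretch printed above. These letters describe the window only.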

How the data were processed

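mRNA of 15 mammary tumors and 3 normal glands was sequenced in pairs with a stranded Illumina kit, per the study's methods. The authors trimmed reads with Cutadapt 1.18 and deposited RSEM 1.3.0 expected counts per gene, of which 5.61% were not whole. The methods name a human reference, whereas the identifiers in the table are those of mouse GENCODE M21 and the labels list mm10, so the reference used is uncertain. Strand settings of the counting are not given in the sources used here.

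Expected counts were rounded, genes were filtered with filterByExpr (minimum count 10), which kept 19186 of 55450, and 1 edgeR 4.0.16 quasi-likelihood fit (TMM, R 4.3.3) over all 18 libraries gave log2 fold changes, with calls at a Benjamini-Hochberg adjusted p of 0.05 over all genes kept. Levels are TMM-scaled CPM, and means over the set use log2 CPM with a prior count of 2. Alternatives were DESeq2 1.42.0, limma 3.58.1 (voom, quantile), other filters, library sizes without TMM, only the groups compared, a term for 2 sets of library numbers and each library left out. The fits were also run on simulated data for B1/P/Rbf against P/Rbf, and the outcome is not given here.

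The members and the lists were chosen with earlier results of these data known. Values in every sample (Irf9 in B1/P/Rbf by its range and median) are given for 11 members fixed by role and for 4 members per pair of tumor groups: the called members with the largest log2 fold change, then those with the smallest p. Oas3, Ifi27l2a and Ifnb1 are also given in every sample and were chosen after their values were seen. A further gene, outside the set, is not reported here. Libraries of a group differed beyond sampling noise, with a chi-square per degree of freedom of 27.0 to 562. Promoters came from RefSeq (GRCm38.p6). Expression of T121 was not analysed here.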

Additional observations from a re-analysis of the deposited data

Results flagged for a closer look

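In 20 of 111 groups of 5 samples tested for the set, 1 sample stood apart by Dixon's ratio, the gap to its nearest neighbour divided by the range of the group, with a critical value of 0.710. Chance gives such a result in about 1 of 20 groups, and genes of the set are not independent of each other. All 20 were low values in 2 tumors.

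In P/Rbf, replicate 3 (mouse 290860) stood below the other tumors with a ratio of 0.721 for Isg15, 0.811 for Ifit1, 0.835 for Ifit3, 0.727 for Ifit3b, 0.758 for Oasl2, 0.818 for Oas1a, 0.762 for Oas3 and 0.727 for Mx1. The ratio was 0.893 for Irf7, 0.880 for Irf9, 0.752 for Ifi44, 0.759 for Ifih1, 0.726 for Ddx58, 0.817 for Rtp4, 0.720 for Trim30a and 0.755 for the mean over the 36 genes. Without this tumor, B1/P against P/Rbf gave 9 calls.

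In B1/P/Rbf, replicate 4 (mouse 209490) stood below the others with 0.868 for Ifit2, 0.762 for Ifit3, 0.741 for Ifit3b and 0.798 for Tmem173.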

How the results depend on the processing

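Shares of all genes called are given in this report for the main edgeR fit only, and the counts below stand without one. In the comparison of B1/P/Rbf with P/Rbf the count of called genes stayed at 0 in all settings tried. DESeq2 called 11 genes for B1/P against P/Rbf, 4 for the mean of the Brca1-deleted groups, 2 for B1/P/Rbf against B1/P, 22 for B1/P/Rbf against glands and 13 for B1/P against glands. With only the groups compared in the fit, the counts were 1 for B1/P against P/Rbf, 0 for B1/P/Rbf against B1/P and 26 for B1/P/Rbf against glands. With the term for 2 sets of libraries, 0 genes were called for B1/P/Rbf against B1/P, for B1/P/Rbf against glands and for B1/P against glands. The medians against P/Rbf were then -2.50 for B1/P/Rbf, -2.68 for B1/P and -2.55 for their mean, and those against glands 0.13 for B1/P/Rbf and -0.19 for B1/P, the last with its sign turned. Since only B1/P tumors lie in both sets, that term rests on 5 tumors. For B1/P against glands, library sizes without TMM gave 8 calls and limma-voom 1. The filter of log2 CPM of 6 in 6 samples kept only 30 genes of the set. For P/Rbf against glands it gave 14 calls, 13 higher and 1 lower. Among single genes in B1/P/Rbf against P/Rbf, limma-voom gave 0.07 for Irf7 and 0.20 for Rsad2, and the library-set term gave -0.55 for Usp18, with the sign turned in each. The cause was not tested.

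Leaving out each library in turn gave 2 to 12 calls for B1/P against P/Rbf, 0 to 4 for the mean of the Brca1-deleted groups, 1 to 4 for B1/P/Rbf against B1/P, 6 to 17 for B1/P/Rbf, 0 to 9 for B1/P and 9 to 30 for P/Rbf against glands. Irf7 ranged from -0.51 to 0.06 and Rsad2 from -1.01 to 0.17 in B1/P/Rbf against P/Rbf. Without TMM the median log2 fold change of all genes moved by 0.28 to 0.37 in the 3 comparisons with glands, and with limma-voom by 0.16 in 2 of them. No paired analysis was possible because mouse numbers are not shared between groups. With 5 tumors a group and a wide spread, a gene that was not called may still differ by as much as its interval allows. Counting error was small beside that spread, since the lowest expected count of a member was 31.68.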

Other observations

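Ddx58 stood at 734 CPM in B1/P replicate 3 against 346 CPM or lower in every other library. The mean level of the set in that tumor, 6.63, was close to the 6.56 of B1/P replicate 2, in which Ddx58 stood at 141 CPM. It was chosen after its values were seen.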
